A study of Mus musculus with 12 samples.

Results

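Chromatin accessibility at 34 genes of the interferon response was followed in splenic B cells with and without the histone demethylase LSD1. A region was counted as belonging to one of these genes when that gene was the protein-coding gene it overlapped or lay nearest to. By this rule 215 of the 94161 deposited regions were interferon response regions, and the 34 genes were among 16924 genes with at least 1 region. Of the 215, 211 reached 1 rppm (reads per peak per 1000000 reads over all regions) in 3 or more libraries and were tested. The 4 regions below that level lay at Ifit2, Irf8, Parp9 and Zbp1.

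ATAC-seq was used, an assay whose Tn5 transposase inserts sequencing adapters where chromatin is open. Cells came unstimulated from spleens of female C57BL/6J mice, 10000 cells to a library. Marginal zone B cells (MZB) line the border of the white pulp and answer early to antigens carried in blood, and they were sorted as B220+ CD23- CD21hi CD1d+ cells. Follicular B cells (FoB), the recirculating majority of the spleen, were sorted as B220+ CD23+ CD21mid CD1d- cells. Cells positive for GL7, CD93, CD11b, F4/80 or Thy1.1 were gated out of both. Wild-type and LSD1 knockout mice, as labelled, each gave both cell types, with 3 libraries in each of the 4 groups. No source used here gives the allele, a Cre driver, the age of the mice or whether a group's libraries came from separate mice. The p-values thus rest on the spread among libraries, which may be technical. The authors scaled each library to the reads over all listed regions.

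Type I interferons bind a receptor made of Ifnar1 and Ifnar2, whose kinases activate STAT proteins. Stat2 and Irf9 are part of a complex, ISGF3, that binds the interferon-stimulated response element in promoters of induced genes. Interferon regulatory factors (IRFs) bind the same kind of element, and Irf8 and Irf4 in addition act in B cell development together with Ets factors. Ddx58 (RIG-I), Ifih1 (MDA5) and Zbp1 sense foreign or misplaced nucleic acids, and loss of LSD1 has been reported in other cells to raise interferon genes through such sensors.

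The response element could be read in the promoters of the genes. RefSeq promoter windows of 300 bases (GRCm38.p6, to which mm10 corresponds) were at hand for 27 of the 34 genes. Its core, GAAA followed by any 2 bases and GAAA, stood on either strand in 12 of these 27 (44.4%), against 3.94% of the 17492 protein-coding genes with a window. These 12 were Bst2, Ddx58, Eif2ak2, Ifih1, Ifit1, Ifit3, Ifitm3, Irf2, Isg15, Oas3, Rsad2 and Stat2. The gamma-activated site TTCCNGGAA stood in 3 of 27 (11.1%, against 1.38% of genes) and the ETS-IRF composite letters, GGAA followed by any 2 bases and GAAA, in 4 of 27 (14.8%, against 2.98%). The last can overlap the response element core. A match is a description of letters and not a binding site.

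Windows of 6 genes that recur in the results are printed here, each 5′ to 3′ on the gene's own strand from 250 bases before to 50 bases after the RefSeq start, with every response element core in capitals, read in either orientation. Isg15 encodes a ubiquitin-like protein and carried 3 overlapping cores at chr4:156200769-156201068 on the minus strand. Ifit3 encodes a binding partner of the RNA-binding protein Ifit1 and carried 2 cores at chr19:34583279-34583578 on the plus strand. Ifitm3, a membrane protein that blocks viral fusion, carried 2 cores at chr7:141010695-141010994 on the minus strand. Rsad2 (viperin, an antiviral radical SAM enzyme) carried 1 at chr12:26456403-26456702 on the minus strand, Stat2 1 at chr10:128270248-128270547 on the plus strand and Irf2 1 at chr8:46739495-46739794 on the plus strand.
Isg15: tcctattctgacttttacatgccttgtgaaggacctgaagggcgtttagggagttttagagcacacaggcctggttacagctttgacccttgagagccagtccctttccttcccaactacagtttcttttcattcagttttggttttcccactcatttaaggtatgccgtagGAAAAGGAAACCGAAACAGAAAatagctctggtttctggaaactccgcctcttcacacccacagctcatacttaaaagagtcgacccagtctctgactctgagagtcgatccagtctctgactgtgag
Ifit3: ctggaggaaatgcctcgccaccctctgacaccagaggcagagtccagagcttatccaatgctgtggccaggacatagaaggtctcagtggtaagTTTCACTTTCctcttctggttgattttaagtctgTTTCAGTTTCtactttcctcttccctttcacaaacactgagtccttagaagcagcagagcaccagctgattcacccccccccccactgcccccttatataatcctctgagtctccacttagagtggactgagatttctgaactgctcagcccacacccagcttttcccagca
Ifitm3: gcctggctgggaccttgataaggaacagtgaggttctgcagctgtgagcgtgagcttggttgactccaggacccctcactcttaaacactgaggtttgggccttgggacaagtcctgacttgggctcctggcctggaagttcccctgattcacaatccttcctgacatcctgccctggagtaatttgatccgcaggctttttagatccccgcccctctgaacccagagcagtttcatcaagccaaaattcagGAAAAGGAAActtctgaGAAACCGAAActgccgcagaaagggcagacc
Rsad2: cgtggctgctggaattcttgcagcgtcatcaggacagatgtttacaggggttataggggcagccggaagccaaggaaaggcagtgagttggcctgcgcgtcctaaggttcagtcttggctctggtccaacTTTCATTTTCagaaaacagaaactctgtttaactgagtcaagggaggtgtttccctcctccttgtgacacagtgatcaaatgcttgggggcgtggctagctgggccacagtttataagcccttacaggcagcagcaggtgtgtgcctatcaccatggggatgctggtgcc
Stat2: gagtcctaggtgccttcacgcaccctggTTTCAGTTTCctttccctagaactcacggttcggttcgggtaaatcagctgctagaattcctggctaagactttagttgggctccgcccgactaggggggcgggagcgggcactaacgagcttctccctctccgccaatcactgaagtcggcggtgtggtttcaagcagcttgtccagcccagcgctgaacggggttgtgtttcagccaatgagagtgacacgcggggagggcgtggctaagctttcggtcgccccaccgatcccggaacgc
Irf2: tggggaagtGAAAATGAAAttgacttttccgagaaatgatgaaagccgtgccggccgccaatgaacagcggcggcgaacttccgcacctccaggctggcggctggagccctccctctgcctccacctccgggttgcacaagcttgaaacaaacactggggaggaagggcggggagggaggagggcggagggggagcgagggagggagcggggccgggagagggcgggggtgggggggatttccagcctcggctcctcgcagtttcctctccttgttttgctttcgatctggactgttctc

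All 18 cores found in the 12 promoters lay inside the deposited region at that gene's start site. Accessibility at the stretch of DNA that holds the element was therefore measured in each of these genes.

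Libraries held 3169966 to 10375328 reads over the listed regions, with wild-type FoB library 2 the deepest, and 3 reads were worth 0.289 to 0.946 rppm. Intervals given for single shares or ratios cover counting error only. Accessibility at 7 MZB marker genes summed to 1586 to 1674 rppm in wild-type MZB and 1294 to 1358 in wild-type FoB, and at 5 FoB marker genes to 602.7 to 608.6 and 825.8 to 843.0, so the sums parted the cell types. Of the 7 MZB genes Cr2, which encodes the sort marker CD21, and Hes1 went the other way, Cr2 with 285 to 302.8 rppm in wild-type MZB and 321.9 to 365.8 in wild-type FoB and Hes1 with 288.6 to 310.8 and 366.5 to 376.7. Of the 5 FoB genes Cxcr5 overlapped, with 146.2 to 159.2 rppm in wild-type MZB and 154.5 to 161 in wild-type FoB. A single region overlapped Kdm1a, which encodes LSD1 (chr4:136601890-136603082). It held 18.9 to 29.7 rppm in knockout and 16.5 to 28.5 in wild-type MZB, and 20.5 to 20.6 against 21.2 to 24.9 in FoB. The deleted part of the gene is not given, so this level does not check the knockout labels.

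The 215 regions were spread unevenly over the genes. Irf2, a repressor and activator of interferon genes, had 40 and Irf8, a lineage factor of B cells and myeloid cells, had 32. Irf1 had 15, Ifnar2 13, Ifnar1 10 and Parp14 9, whereas Irf3, Irf9, Isg15, Ifit1 and Bst2 had 1 each. Of all 215, 114 overlapped the gene body, 43 lay outside it within 10000 bp and 58 lay farther away, up to 139016 bp. A region at the start site was present for 32 genes, all but Ifi44 and Rtp4, and it was the most accessible region of 22 genes. For Oas2, Zbp1, Parp9, Usp18, Dhx58 and Parp14 no start was at hand. There the most accessible region within 1000 bp of either gene end stood in for the start site. Widths ran from 127 to 1603 bp with a median of 393. In 7 cases a region overlapped a second gene as well, among them the shared promoter regions of Parp9 and Dtx3l and of Irf3 and Bcl2l12, which cannot be credited to 1 gene.

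Listed regions at the start sites of the genes differed widely in level in these unstimulated B cells. Levels at the start sites of other genes were not set beside them. Per kilobase of region and averaged over the 12 libraries, levels ran from 65.7 rppm per kb at Irf2 to 7.49 at Oas2, with a median of 36.9. The regions of Oas2, Zbp1, Parp9 and Dhx58 are those near either gene end and may not hold the start. Ifih1 (62.2 rppm per kb), Stat2 (56.5), Oasl1 (56.0), Zbp1 (55.0) and Irf9 (54.6) followed Irf2. Induced effectors stood at both ends. Rsad2 had 53.2 rppm per kb, Parp9 51.6 and Isg20 46.4. Oas3 had 9.56 rppm per kb, Ifitm3 9.84 and Oasl2 10.1, the first and last of these low ones enzymes or relatives of enzymes that make 2′-5′ oligoadenylate on double-stranded RNA. Dhx58 (LGP2, a relative of RIG-I) had 13.5. Isg15 stood between, at 26.7 rppm per kb.

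The first question was whether interferon genes gained accessibility when LSD1 was lost in MZB. Hardly any single region did by the test. Of 211 regions 1 was higher and 0 were lower in knockout than in wild-type MZB (limma, Benjamini-Hochberg adjusted p under 0.05 over the 89782 tested regions), while 0.777% of all tested regions were called, 0.502% as higher and 0.275% as lower. At an unadjusted p under 0.05 (limma) there were 21 of 211 regions, a smaller share than the 11909 of all 89782 tested regions. The median log2 fold change of the 211, on the log2(rppm + 0.5) scale as are all fold changes here, was 0.07, against -0.02 over all tested regions.

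The called region lay 7786 bp past the end of Irf8 (chr8:120764480-120764880; the gene spans 120736358 to 120756694 on the plus strand). In MZB it held 9.72, 7.18 and 5.29 rppm in wild-type and 9.80, 15.8 and 12.7 in knockout. Wild-type FoB libraries held 15.3, 11.9 and 13.9 rppm and knockout FoB libraries 15.3, 12.4 and 13.7. Knockout MZB stood above wild-type MZB without overlap, by as little as 9.80 against 9.72 rppm, while both FoB groups covered the same range. The log2 fold change in MZB was 0.76 ± 0.19 (SE, n = 3 libraries a group, adjusted p = 0.0428, limma), and in FoB 0.01 ± 0.19 (adjusted p = 0.991).

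This call was not stable. The fold change kept its direction in all 24 alternatives, but the adjusted p rose above 0.05 in 10 of them, among them edgeR (0.0855) and DESeq2 (0.301). It ran from 0.0156 to 0.266 when single libraries were left out, with the call lost without knockout MZB library 2 or 3, wild-type MZB library 2 or 3, or knockout FoB library 1 or 2. Of 147 other tested regions within 1000000 bp, 0 were called in the same comparison by limma.

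Other Irf8 and Irf2 regions came next in order of p without passing the test. An Irf2 region inside the gene, its middle 1438 bp from the start (chr8:46740753-46741612), held 35.6, 41.2 and 40.1 rppm in wild-type MZB and 30.1, 30.3 and 29.3 in knockout MZB. Knockout libraries lay below wild-type ones without overlap (log2 fold change -0.38 ± 0.11, adjusted p = 0.0824, limma). FoB libraries held 38.0 to 45.5 rppm in wild-type and 40.8 to 45.2 in knockout.

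Start sites of the interferon genes did not pass the test in MZB either. By limma, edgeR and DESeq2 0 of 32 were called, with 4 at an unadjusted p under 0.05 in limma. Of all 12171 tested regions within 1000 bp of the start of their gene 0.542% were called, 0.362% as higher. Among these 12171, 1436 had an unadjusted p under 0.05 in limma. Rsad2 held 29.7, 35.1 and 31.4 rppm at its start site in wild-type MZB and 39.4, 40.1 and 37.8 in knockout MZB. The knockout libraries were all higher (log2 fold change 0.29 ± 0.14, adjusted p = 0.375, limma). Isg20, an RNA exonuclease, held 28.6, 24.2 and 28.6 rppm against 34.1, 30.3 and 33.1 in the knockout, again without overlap (0.26 ± 0.12, adjusted p = 0.33, limma). Isg15 held 7.02, 5.85 and 8.40 rppm against 7.70, 11.0 and 9.46, where the groups overlapped (0.38 ± 0.20, adjusted p = 0.403, limma). At the receptor subunit Ifnar2 the start site went the other way, from 23.2, 22.3 and 23.0 rppm in wild-type to 18.7, 16.1 and 17.4 in knockout MZB (-0.39 ± 0.13, adjusted p = 0.148, limma).

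**Figure D1:**
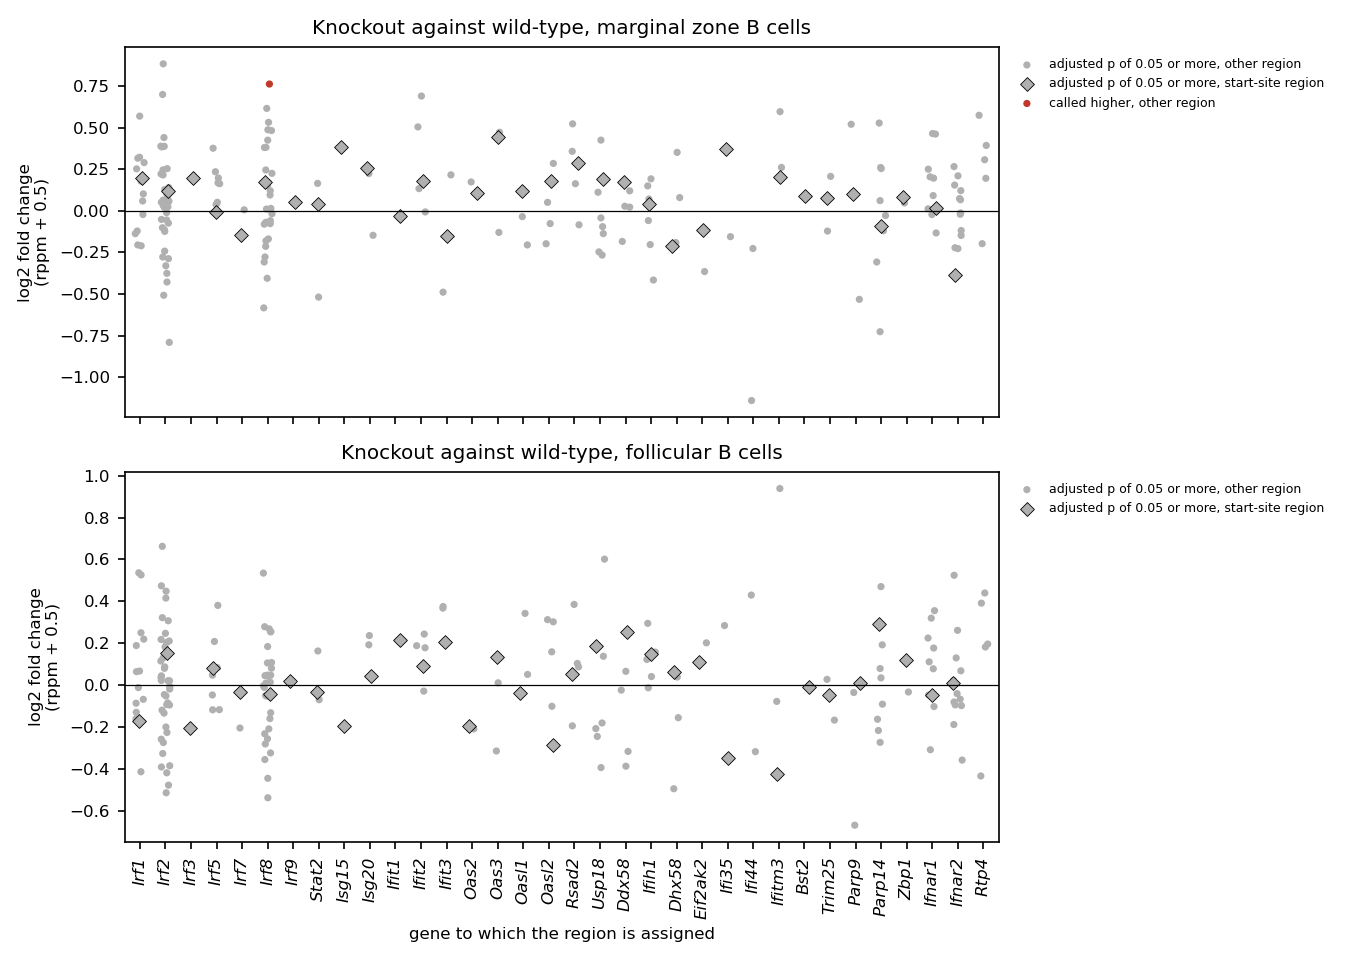
Log2 fold change of knockout over wild-type, on the log2(rppm + 0.5) scale, for the 211 tested regions by gene, in marginal zone (top) and follicular B cells (bottom). Diamonds are start-site regions, dots the other regions and red marks a region called by limma; 1 region, at Irf8, is called in the top panel and 0 in the bottom panel.

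Summed over genes, small shifts in knockout MZB pointed mostly upward. Knockout and wild-type MZB libraries did not overlap in 25 regions that were higher and 8 that were lower, where 8.13% and 9.55% of all tested regions were so. Summing each gene's regions, 10 of 34 genes (29.4%) were higher in all knockout than in all wild-type MZB libraries and 0 were lower, while 11.1% and 10.6% of all genes were. These sums carry no test. The 10 genes were Irf8, Isg20, Ifit2, Oas3, Rsad2, Ifi35, Ifitm3, Trim25, Ifnar1 and Rtp4, and with library scaling by TMM the count was again 10 and 0.

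Rsad2 regions summed to 79.1, 77.9 and 87.1 rppm in wild-type and 97.0, 97.8 and 93.1 in knockout MZB. Ifit2, an inhibitor of viral translation, summed to 52.1, 54.5 and 52.6 rppm in wild-type and 62.5, 64.4 and 60.3 in knockout MZB. Rtp4, a chaperone of taste and opioid receptors that is induced by interferon, summed to 46.4, 49.7 and 44.5 rppm against 55.3, 59.6 and 57.3. In each of these 3 genes the lowest knockout library stood above the highest wild-type library by several rppm.

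All 215 regions together took 2544, 2593 and 2555 rppm in wild-type MZB and 2700, 2719 and 2733 in knockout MZB. The groups did not overlap, but the gap was small beside the level. In FoB the sums were 2772, 2749 and 2731 in wild-type and 2910, 2824 and 2713 in knockout, which overlapped. Sums over myeloid, dendritic cell and NK cell genes were also higher in knockout MZB without overlap, while the T cell sum overlapped. The 6 myeloid marker genes, with 2 of 46 tested regions called higher, summed to 345.5 to 373.3 rppm in wild-type and 384.1 to 435.0 in knockout MZB. The 6 dendritic cell genes, with 1 of 55 called higher, summed to 531.8 to 543.3 and 548.8 to 572.7, and the 4 NK cell genes, with 0 of 19 called by limma, to 326.8 to 337.1 and 342.6 to 383.0. Of 6 T cell genes Cd3g, Cd4 and Cd8a had no region, and the others summed to 45.3 to 51.6 rppm and 47.4 to 58.0. The genes of a list did not move alike: Adgre1, Fcgr1, Flt3 and Klrb1c were higher in all knockout than in all wild-type MZB libraries. Lyz2 was lower (9.31 to 9.95 rppm in wild-type and 5.36 to 7.23 in knockout), and Csf1r overlapped (35.9 to 43.2 and 36.1 to 42.9). The part of such cells in the MZB values was not tested, and in bulk libraries more open chromatin per cell and more cells with open chromatin cannot be told apart.

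In FoB, too, hardly any interferon region was called between genotypes. By limma 0 of 211 interferon regions were called, while 0.539% of all tested regions were, 0.32% as higher and 0.219% as lower. An unadjusted p under 0.05 in limma was found for 11 of the 211 and for 8126 of all 89782 tested regions. DESeq2 called 0 and edgeR called 1. The median log2 fold change was 0.02, against -0.02 over all tested regions.

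The region edgeR called belongs to Ifitm3 and lies 9977 bp from the gene (chr7:140999024-140999613; the gene spans 141009590 to 141010744). In FoB it held 1.92, 2.99 and 3.58 rppm in wild-type and 6.00, 6.18 and 5.08 in knockout. In MZB it held 5.13, 5.58 and 5.60 rppm in wild-type and 7.23, 9.15 and 9.16 in knockout. Knockout libraries stood above wild-type ones without overlap in both cell types, and MZB above FoB within the wild-type. These levels rest on 53 to 91 reads per group. The log2 fold change was 0.94 ± 0.24 in FoB (adjusted p = 0.0525 by limma, 0.0443 by edgeR and 0.343 by DESeq2) and 0.60 ± 0.24 in MZB (adjusted p = 0.246, limma). The start site of Ifitm3 did not follow: it held 2.19, 3.08 and 3.34 rppm in wild-type and 3.52, 1.65 and 1.27 in knockout FoB.

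Among regions lower in knockout FoB the smallest p was at Irf8, 573 bp past the gene end (chr8:120757267-120757732), with 17.3, 11.5 and 11.7 rppm in wild-type and 8.07, 10.3 and 8.64 in knockout. The libraries did not overlap (-0.54 ± 0.17, adjusted p = 0.21, limma). Ifi35, which encodes an interferon-induced leucine zipper protein, went opposite ways in the cell types at its start site. It held 14.6, 14.9 and 11.2 rppm in wild-type and 16.3, 16.4 and 20.1 in knockout MZB. In FoB it held 18.1, 19.9 and 19.6 in wild-type and 15.3, 14.8 and 14.7 in knockout. Groups overlapped in neither cell type, and the fold changes, 0.37 ± 0.15 and -0.35 ± 0.15, missed the threshold (adjusted p = 0.247 and 0.436, limma).

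FoB libraries of the 2 genotypes did not overlap in 20 regions that were higher and 13 that were lower in the knockout, against 7.18% and 7.51% of all tested regions. Gene sums were higher without overlap for 6 of 34 genes, Irf5, Ifit1, Ifit3, Ifih1, Zbp1 and Ifnar1, and lower for Irf3 and Ifi35, against 7.94% and 8.19% of all genes. Ifih1 summed to 91.7, 109.9 and 108.4 rppm in wild-type and 111.1, 116.2 and 113.9 in knockout FoB, so that the knockout stood just above. Dendritic cell genes summed to 448.2 to 463.3 rppm in wild-type and 484.0 to 505.1 in knockout FoB, with 0 of 55 regions called by limma. Siglech, Flt3 and Zbtb46 were higher in all knockout than in all wild-type FoB libraries, while Xcr1, Clec9a and Itgax overlapped. The myeloid, NK cell and T cell sums overlapped between the genotypes in FoB. The part of such cells in the FoB values was not tested.

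Whether the effect of LSD1 loss differed between the cell types was tested directly. For 0 of 211 regions did it differ by limma, edgeR or DESeq2, and 0.00111% of all tested regions were called by limma. An unadjusted p under 0.05 in limma was found for 13 of the 211 and for 5585 of all 89782 tested regions. The smallest p was at the Ifi35 start site, where the effect in MZB exceeded that in FoB by 0.72 ± 0.21 (adjusted p = 0.645, limma). The intragenic Irf2 region named for MZB followed on the negative side (-0.41 ± 0.15, adjusted p = 0.735), and at the Irf8 region past the gene end the difference was 0.75 ± 0.27 (adjusted p = 0.735). The higher level of the Irf8 region in knockout MZB is therefore not shown to differ from FoB.

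A contrast added after the data were seen averaged the knockout effect over both cell types. It called 3 of 211 regions higher and 0 lower by limma, where 2.2% of all tested regions were called, 1.3% as higher and 0.906% as lower. Of 32 start sites 0 were called by limma, against 1.82% of all tested regions near a start, 0.887% as higher. An unadjusted p under 0.05 in limma was found for 3 of the 32 and for 1566 of all 12171 tested regions near a start. The Ifitm3 region was higher in knockouts by 0.77 ± 0.17 (adjusted p = 0.00657). The other called regions lay at the receptor gene Ifnar1, 12447 bp past its end (chr16:91522970-91523338; 0.39 ± 0.10, adjusted p = 0.0331), and within the annotated span of Rtp4 (chr16:23557125-23557714; 0.37 ± 0.10, adjusted p = 0.0335). Both lost the call by DESeq2 (adjusted p = 0.116 and 0.163). Without single libraries the adjusted p ran from 0.029 to 0.113 for Ifnar1 and from 0.017 to 0.112 for Rtp4, the call being lost for both without knockout MZB library 2, wild-type MZB library 1 or 3, knockout FoB library 2 or wild-type FoB library 1, and for Rtp4 also without knockout MZB library 3, knockout FoB library 1 or wild-type FoB library 3. The Ifitm3 region kept its call in all 23 alternatives.

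The Ifnar1 region held 15.9, 17.8 and 16.2 rppm in wild-type and 21.0, 27.5 and 21.3 in knockout MZB. In FoB it held 13.7, 18.8 and 19.6 rppm in wild-type and 20.3, 23.9 and 20.6 in knockout. Every knockout library was above every wild-type library of its cell type. The Rtp4 region held 22.9, 26.9 and 26.4 rppm in wild-type MZB and 28.0, 32.5 and 34.3 in knockout MZB. In FoB it held 10.1, 12.2 and 9.07 in wild-type and 14.5, 14.4 and 14.0 in knockout. Here too the genotypes did not overlap, and MZB libraries stood above all FoB libraries. Over the 211 regions the fold change was above 0 in both cell types for 73, below 0 in both for 37 and mixed for 101. The same split was not made over all tested regions. Taken singly, 132 of the 211 were above 0 in MZB and 115 in FoB, against 42051 and 41930 of all 89782 tested regions.

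**Figure D2:**
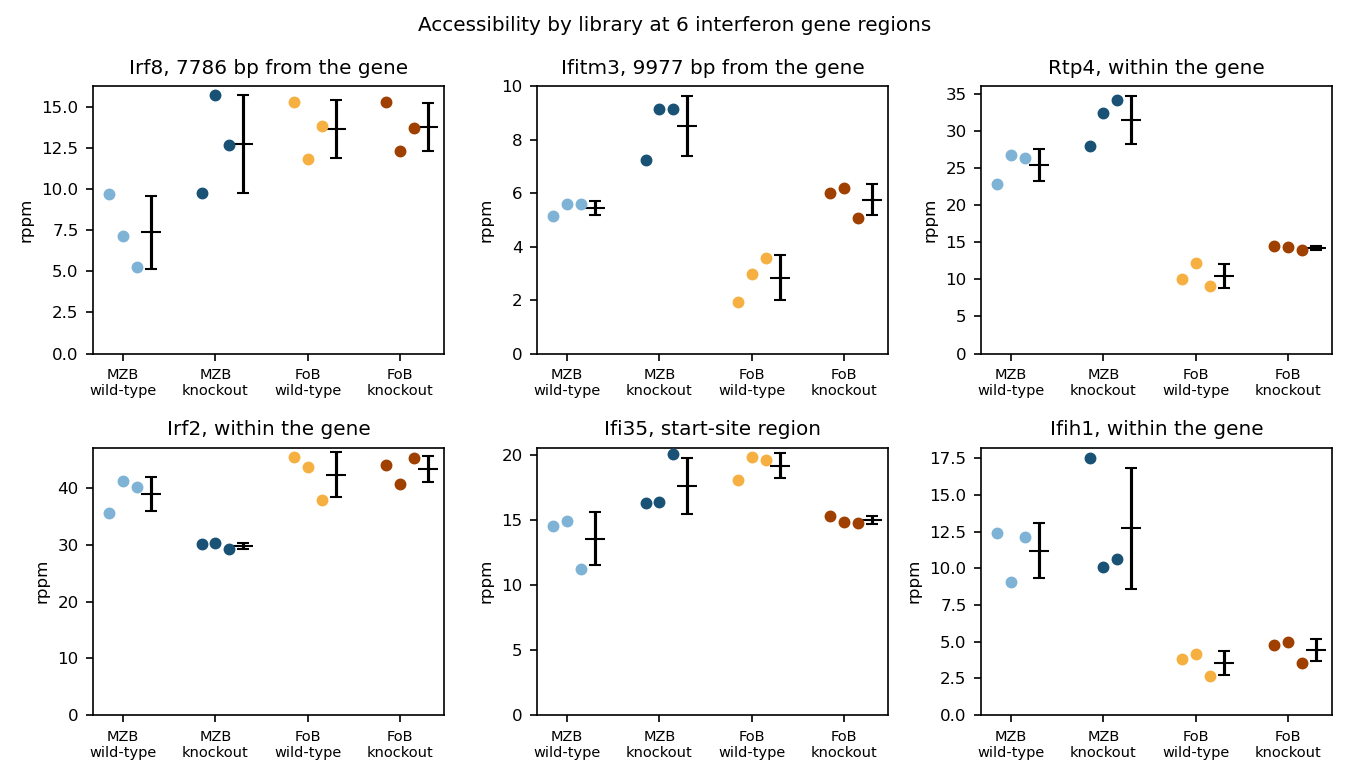
Accessibility in rppm by library at 6 regions, with 3 libraries in each of the 4 groups as points and the mean ± SD as bars beside them. Within each cell type knockout libraries lie above wild-type libraries at Ifitm3 and Rtp4; they do so in marginal zone but not follicular cells at Irf8, and on opposite sides in the 2 cell types at Ifi35; marginal zone cells stand above follicular cells at Rtp4 and Ifih1.

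Far more of the interferon regions were called between cell types than between genotypes, as was so over all tested regions. Between genotypes 0.777% of all tested regions were called in MZB and 0.539% in FoB (limma). In wild-type mice 27 of 211 regions were higher and 36 lower in MZB than in FoB (29.86% called by limma, where 35.7% of all tested regions were, 24.2% as higher and 11.4% as lower). The median log2 fold change was -0.01 for the interferon regions and 0.18 over all tested regions. With TMM scaling the latter fell to 0.04 and the counts became 19 higher and 54 lower, so that the share of higher regions among those called went from 42.9% to 26.0%. Over all tested regions the same share went from 67.9% to 51.7%. Libraries of the cell types did not overlap in 43 interferon regions that were higher and 47 that were lower in MZB, against 30.9% and 15.8% of all tested regions and 46.7% in either direction.

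Of 32 start-site regions 0 were higher and 12 (37.5%) were lower in wild-type MZB. The share lower is near that of start sites in general, since among all tested regions within 1000 bp of the start of their gene 10.5% were higher and 32.6% lower. With TMM scaling, edgeR and DESeq2 again 0 start sites were higher and 18, 20 and 14 were lower, and with quantile normalisation 3 were higher and 11 lower. The 12 genes were Bst2, Ifi35, Ifit2, Ifnar1, Irf1, Irf2, Irf3, Irf8, Parp9, Stat2, Trim25 and Usp18. Away from the start sites 27 of 179 tested regions were higher (15.1%) and 24 lower (13.4%). Over all tested regions more than 1000 bp from the start of their gene 26.7% were higher and 7.53% lower.

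The receptor and its signal transducers differed by subunit and by site. The Ifnar1 start site (chr16:91484653-91485703) held 39.9, 42.0 and 40.4 rppm in wild-type MZB and 57.2, 57.6 and 55.6 in wild-type FoB, which did not overlap. It was lower in MZB (-0.47 ± 0.10, adjusted p = 0.000246, limma), while 2 other Ifnar1 regions and 3 Ifnar2 regions were higher. Of the 23 tested receptor regions 5 were thus higher (21.7%) and 1 lower (4.35%), against 24.2% and 11.4% of all tested regions. The share higher was near that of all tested regions. The Stat2 start site, shared with Apof, held 32.4, 36.7 and 33.0 rppm in MZB and 47.4, 43.5 and 46.6 in FoB, and it was lower in MZB (-0.42 ± 0.11, adjusted p = 0.00265, limma). Irf9, the DNA-binding partner of Stat2, had a single region at its start with 46.2 to 49.5 rppm in MZB and 48.7 to 60.0 in FoB (-0.14 ± 0.10, adjusted p = 0.292, limma).

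The IRF genes held 97 of the 211 tested regions, of which 24 were lower (24.7%) and 9 higher (9.28%) in wild-type MZB, against 11.4% and 24.2% of all tested regions. More were lower than higher with TMM and quantile scaling, edgeR and DESeq2 as well. Irf2 had 11 lower and 2 higher regions, Irf8 7 and 3, Irf1 3 and 4, Irf5 2 and 0, and Irf3 1 and 0. In knockout mice 12 of the 97 regions were lower (12.4%) and 9 higher (9.28%) in MZB by limma. Over all tested regions 9.47% were lower and 23.2% higher there. With TMM scaling the knockout counts were 24 lower and 6 higher. At the far end of the Irf2 gene body (chr8:46844559-46845443) the wild-type libraries held 34.6, 36.2 and 40.4 rppm in MZB and 68.7, 66.9 and 72.3 in FoB. Levels in FoB stood well above those in MZB (-0.90 ± 0.10, adjusted p = 1.96e-09, limma). A weak Irf2 region 35875 bp past the gene (chr8:46883333-46883574) held 2.16, 3.46 and 1.87 rppm in MZB and 9.58, 6.65 and 8.60 in FoB, without overlap (-1.57 ± 0.26, adjusted p = 9.54e-06, limma).

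Irf1, a factor that interferon gamma induces, was lower in MZB at its start site and higher downstream. The start site (chr11:53769630-53770191) held 20.8, 23.4 and 22.4 rppm in wild-type MZB and 42.4, 35.7 and 37.5 in wild-type FoB (-0.78 ± 0.14, adjusted p = 2.42e-05, limma). The region 16270 bp past the gene (chr11:53794644-53795580) held 35.9, 33.0 and 37.3 in MZB and 24.6, 25.4 and 19.6 in FoB (0.61 ± 0.13, adjusted p = 0.000208, limma). The cell types did not overlap at either region, and their order was reversed from one to the other.

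Irf8 was less accessible in MZB at its start site (chr8:120735982-120736614), with 19.2, 19.7 and 22.4 rppm in wild-type MZB and 37.0, 29.6 and 29.1 in wild-type FoB (-0.63 ± 0.13, adjusted p = 0.000139, limma). The region 7786 bp past the gene, described above for the knockout, was lower in wild-type MZB than in wild-type FoB (-0.88 ± 0.19, adjusted p = 0.000391, limma). In knockout MZB it differed from knockout FoB by -0.13 ± 0.19 (adjusted p = 0.653, limma). The comparisons of genotype and of cell type share the wild-type MZB libraries at this region, so these values are not independent.

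**Figure D3:**
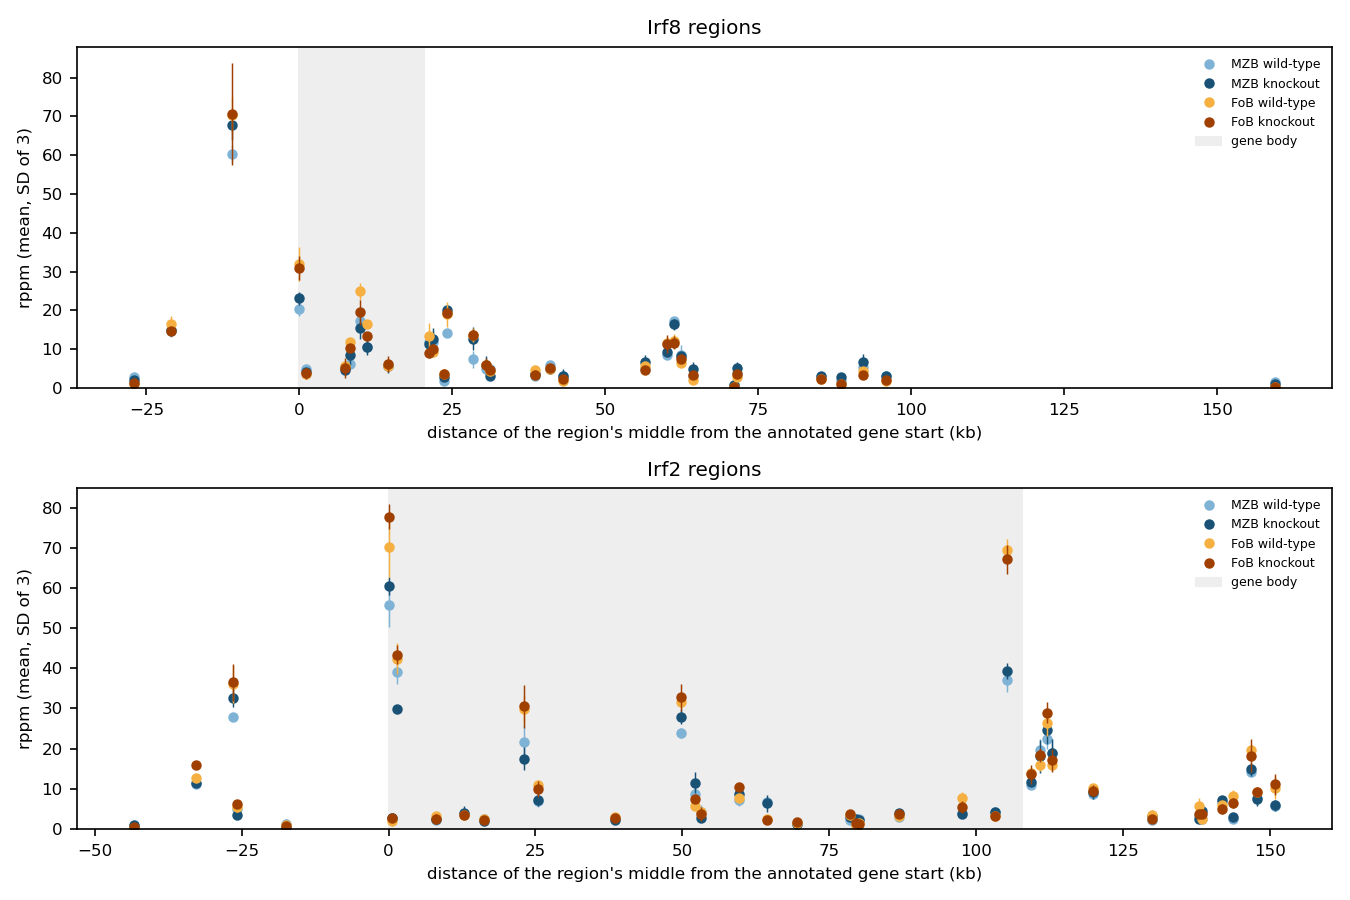
Accessibility in rppm (mean and SD of 3 libraries a group) at every Irf8 (top) and Irf2 (bottom) region, by distance of the region's middle from the gene start in kb, with the gene body shaded. The start site and the far end of the Irf2 gene body are lower in both marginal zone groups than in both follicular groups. The Irf8 region called between genotypes, past the end of the gene, is low in wild-type marginal zone cells.

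Of 18 tested sensor regions 3 were higher (16.7%) and 0 lower in wild-type MZB, against 24.2% and 11.4% of all tested regions. All 3 were among the 7 tested regions of Ifih1. An intragenic region, its middle 39730 bp from the start (chr2:62606196-62606848) held 12.4, 9.04 and 12.1 rppm in MZB and 3.83, 4.14 and 2.63 in FoB, and MZB libraries lay far above (1.54 ± 0.23, adjusted p = 1.31e-06, limma). A second intragenic region (chr2:62635355-62635582) held 7.29, 3.99 and 5.60 rppm against 1.095, 1.93 and 1.67 (1.55 ± 0.34, adjusted p = 0.00037, limma). The start site of Ifih1, at 59.1 to 66.5 rppm in MZB and 51.2 to 58.0 in FoB, was not called (0.19 ± 0.10, adjusted p = 0.123, limma). Ddx58, Dhx58 and Zbp1 had 0 called regions by limma in wild-type mice. Over the 18 tested sensor regions TMM scaling gave 2 higher and 4 lower, and over all tested regions 17347 higher and 16207 lower.

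Effectors went both ways, with 7 higher and 7 lower among 58 tested regions (12.1% each way, against 24.2% and 11.4% of all tested regions) and 5 higher and 12 lower with TMM scaling. The Rtp4 region described above was higher in wild-type MZB by 1.25 ± 0.14 (adjusted p = 6.17e-09, limma). Rsad2 was higher in MZB at a region 3413 bp from the gene, upstream of its start (chr12:26459865-26460445), with 24.3, 23.9 and 31.4 rppm against 17.5, 15.5 and 17.7 in FoB (0.63 ± 0.14, adjusted p = 0.000352, limma). Ifit2 was lower at its start site, with 26.7, 26.6 and 25.5 rppm in MZB and 36.7, 45.7 and 41.5 in FoB (-0.64 ± 0.11, adjusted p = 1.49e-05, limma). In all of these the libraries of the cell types did not overlap.

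An Oas3 region inside the gene (chr5:120766059-120766316) was nearly closed in FoB. Wild-type MZB libraries held 4.32, 2.39 and 3.73 rppm and wild-type FoB libraries 0.548, 0.193 and 0. These values rest on 37 reads against 4, a ratio of 15.8 (95% interval 5.67 to 60.9, exact, counting error only; log2 fold change 2.45 ± 0.40, adjusted p = 8.44e-06, limma). In knockouts the reads were 33 against 1, a ratio of 41.5 with an interval of 6.94 to 1687.

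Both regulators of the response were lower in MZB at their start sites. Trim25, a ubiquitin ligase that activates RIG-I, held 24.0, 23.7 and 26.1 rppm in MZB and 38.3, 35.5 and 36.5 in FoB (-0.57 ± 0.11, adjusted p = 0.000123, limma). Its region 3789 bp past the gene (chr11:89024083-89024544) held 11.9, 14.9 and 11.2 rppm against 28.2, 27.2 and 29.6 (-1.14 ± 0.14, adjusted p = 8.39e-08, limma), so FoB stood above MZB without overlap at both sites. Usp18, which removes ISG15 from proteins and damps receptor signalling, held 17.5, 19.1 and 17.7 rppm in MZB and 26.8, 26.8 and 23.4 in FoB at its start site (-0.49 ± 0.12, adjusted p = 0.00216, limma). The start of Usp18 was taken from either gene end, and Usp18 had 2 higher regions elsewhere.

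**Figure D4:**
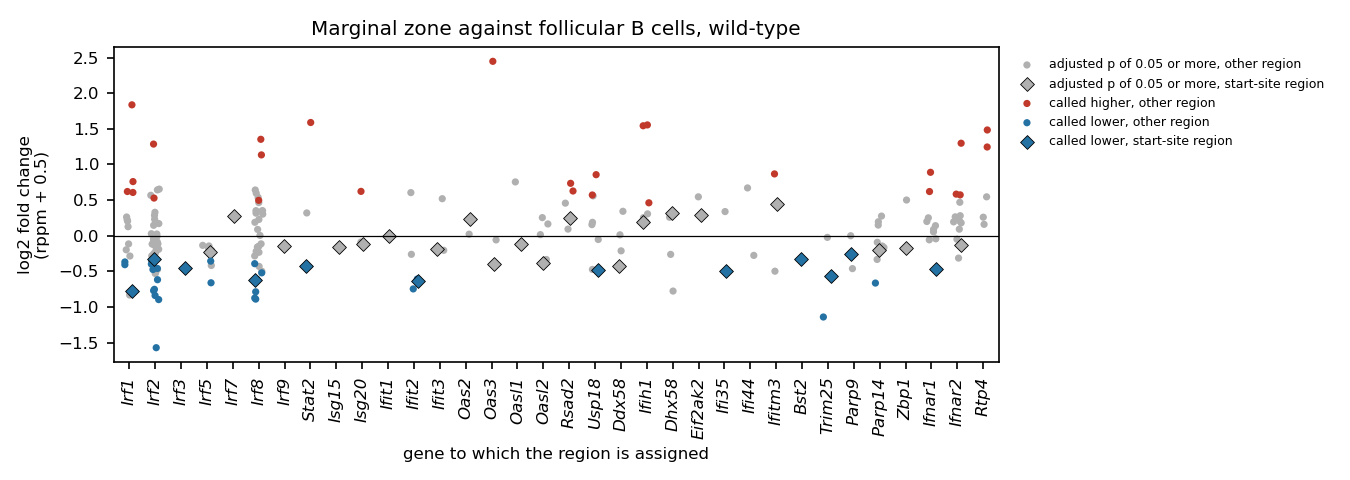
Log2 fold change of marginal zone over follicular B cells in wild-type mice, on the log2(rppm + 0.5) scale, for the 211 tested regions by gene. Red and blue mark the 27 regions called higher and the 36 called lower by limma, diamonds the start-site regions, of which 12 are called lower and 0 higher.

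The cell type difference was also present in knockout mice. There 31 of 211 regions were higher and 25 lower in MZB (26.54% called by limma, where 32.7% of all tested regions were, 23.2% as higher and 9.47% as lower). With TMM scaling the counts were 21 and 46, which took the share of higher regions among those called from 55.4% to 31.3%. Over all tested regions the same share went from 71% to 53.2%. Libraries did not overlap in 48 higher and 28 lower regions, against 28.9% and 13.3% of all tested regions and 42.3% in either direction. Of the regions called higher, 19 were called in both genotypes, which is 70.4% of those in wild-type and 61.3% of those in knockout. Of those called lower, 16 were shared, 44.4% and 64.0% of each list. In 0 regions was the call opposite, and the difference between genotypes was the interaction given above, with 0 regions called.

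Start sites in knockout mice were lower in MZB at 12 genes and higher at 2, where 27.7% of all tested regions near a start were lower and 10.3% higher. Of the 12, 8 were also called in wild-type mice (Ifit2, Ifnar1, Irf1, Irf2, Irf8, Stat2, Trim25 and Usp18). The others were Ddx58, Ifit3, Ifnar2 and Parp14. Ifit3 held 25.9, 32.5 and 21.9 rppm in knockout MZB and 36.8, 36.5 and 42.4 in knockout FoB (-0.54 ± 0.13, adjusted p = 0.00119, limma). Rsad2 and Ifitm3 were higher in MZB at their start sites, Rsad2 with 39.4, 40.1 and 37.8 rppm against 31.9, 31.3 and 21.6 in FoB (0.48 ± 0.14, adjusted p = 0.00717, limma). With TMM scaling and edgeR 1 start site was higher and with DESeq2 0. Over all its regions Rsad2 had 4 higher in knockouts and 2 in wild-type.

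Of the 23 tested receptor regions 7 were higher (30.4%) and 2 lower (8.7%) in knockout MZB than in knockout FoB by limma. Over all tested regions 23.2% were higher and 9.47% lower. An Ifnar1 region 8830 bp from the gene (chr16:91475748-91476202) held 12.4, 13.9 and 9.46 rppm in MZB and 7.24, 5.56 and 3.81 in FoB (1.06 ± 0.21, adjusted p = 0.000142, limma). An Ifnar2 region inside the gene (chr16:91398057-91399290) held 21.5, 19.6 and 20.7 rppm against 12.4, 11.1 and 11.4 (0.79 ± 0.14, adjusted p = 3.01e-05, limma). Neither overlapped between cell types, and both were higher in MZB of wild-type mice too. The Oasl2 region 4411 bp from the gene was lower in knockout MZB, with 11.4, 10.4 and 11.5 rppm against 17.8, 18.5 and 19.3 (-0.71 ± 0.16, adjusted p = 0.0006, limma).

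Since 0 start sites were called between genotypes by limma, start sites with and without the response element core can be set side by side only by their fold changes. The 12 with a core had median log2 fold changes of 0.10 in MZB and 0.12 in FoB. The 14 of genes with a window but no core had medians of 0.15 and -0.04. Between wild-type cell types 3 of the 12 (Bst2, Irf2 and Stat2) and 7 of the 14 were lower in MZB and 0 were higher, where 32.6% of all tested regions near a start were lower and 10.5% higher.

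Other genes of the interferon pathway, 60 with 371 regions of which 361 were tested, also had few regions called between genotypes. By limma 1 of 361 was higher and 1 lower in knockout MZB. That is 0.277% each way, against 0.502% and 0.275% of all tested regions. In FoB 0 were called by limma, against 0.539% of all tested regions. At an unadjusted p under 0.05 in limma there were 26 of the 361 in FoB, against 8126 of all 89782 tested regions. The median log2 fold change of the 361 in MZB was -0.02, with 175 above 0 and 186 below. Libraries did not overlap in 24 higher and 33 lower regions (15.79% in either direction). Over all tested regions 8.13% were so higher and 9.55% lower (17.7% in either direction). The 34 genes had a median of 0.07, with 132 of 211 above 0 and 79 below. Over all 89782 tested regions 42051 were above 0 and 47731 below. The region higher in knockout MZB lay 22953 bp from Ifng, the gene of interferon gamma (chr10:118468847-118469499), and held 14.3, 12.8 and 14.9 rppm in wild-type and 21.9, 22.1 and 23.6 in knockout MZB (0.67 ± 0.13, adjusted p = 0.00541, limma). The lower one overlapped Sp110 and Sp140, nuclear body proteins (chr1:85600512-85601380), with 62.9, 65.1 and 66.2 rppm in wild-type and 46.4, 39.4 and 37.8 in knockout MZB (-0.65 ± 0.10, adjusted p = 0.000328, limma). At both regions the genotypes stood far apart beside the spread of their libraries.

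Between wild-type cell types 62 of the 361 regions were higher (17.2%) and 55 lower (15.2%) in MZB, against 24.2% and 11.4% of all tested regions. In knockouts 50 were higher (13.9%) and 46 lower (12.7%), against 23.2% and 9.47%. An Ifng region 55378 bp from the gene (chr10:118501272-118502071) held 4.05, 3.99 and 5.60 rppm in wild-type MZB and 32.9, 33.3 and 28.2 in wild-type FoB (-2.67 ± 0.17, adjusted p = 5.95e-15, limma). Regions near the double-stranded RNA receptor gene Tlr3 (1.90 ± 0.21), the ligase gene Herc6 (2.21 ± 0.26) and the adaptor gene Mavs (1.42 ± 0.17) were higher in MZB, and a region in the interferon gamma receptor gene Ifngr1 was lower (-0.58 ± 0.07), with adjusted p from 2.64e-09 to 6.56e-08 over these 4 regions (limma).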

How the data were processed

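The authors deposited 1 table of 94161 regions by 12 libraries in RPM over the listed regions (rppm), per the file headers. Bowtie 1.1.1, MACS2 and mm10 are named in the submitters' processing notes. No source used here gives read filters, peak merging, a Tn5 offset or the base at which positions start counting, and positions are printed as deposited. All values (100%) were whole multiples of 1 step in their library within a tolerance of 0.01, so whole reads were recovered.

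Regions were assigned to the overlapping or nearest of 21900 RefSeq protein-coding genes on GRCm38.p6. Exons and introns were not used here. Start sites came from RefSeq promoter windows for 27 of 34 genes and from either gene end for the 7 others (Oas2, Zbp1, Rtp4, Parp9, Usp18, Dhx58, Parp14), within 1000 bp.

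Fold changes and adjusted p-values come from limma 3.58.1 in R 4.3.3 (4-group fit, trended eBayes) on log2(rppm + 0.5), which understates the change of low regions. Regions reaching 1 rppm in 3 or more libraries were tested (89782, with 4379 removed), two-sided, with Benjamini-Hochberg adjustment over all of them and a threshold of 0.05. The fit was tested on simulated data. The alternatives were other pseudocounts and filters, TMM and quantile scaling, a replicate block, robust shrinkage, fits on the compared groups, edgeR 4.0.16 and DESeq2 1.42.0 on the recovered reads, leaving out each library, and regions within 10000 bp only. No replicate pair was as alike as sampling noise alone allows (chi-square over degrees of freedom 1.10 to 1.85).

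The genes and lists were chosen with earlier results of these data known. Regions are named by rule: all called where 15 or fewer, otherwise the 15 with the smallest p and at most 2 of a gene; where none was called, the smallest p in each direction; start-site and most accessible regions; and for other pathway genes up to 5 called regions a comparison by smallest p. The genes whose sums are printed, and the 6 promoters, were picked after their values were seen. Mx1, Mx2 and Oas1b were not protein-coding in the table used, and Tlr7, Oas1g, Ifitm1 and Ifi44l had no region.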

Additional observations from a re-analysis of the deposited data

How the results depend on the processing

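Counts of interferon regions called between genotypes were small and moved with the settings. In MZB the 1 higher region became 0 with a pseudocount of 0.1, with the compared groups only, by edgeR and by DESeq2, and ran from 0 to 1 when libraries were left out. The 0 lower regions became 2 with quantile normalisation. In FoB the 0 higher regions became 1 with a filter of 3 rppm, TMM scaling, robust shrinkage and edgeR, and ran from 0 to 1 without single libraries (1 without wild-type library 3). Averaged over both cell types, the 3 higher regions became 1 by DESeq2 and ran from 1 to 3 without single libraries, with 1 left without wild-type MZB library 1 or 3 or wild-type FoB library 1. Between wild-type cell types, 27 higher regions became 14 by DESeq2 and 36 lower ones 58 by edgeR. In knockouts the 31 higher became 17 with quantile normalisation and 12 by DESeq2, and the 25 lower became 46 with TMM scaling, 41 with quantile normalisation and 46 by edgeR. The cause was not tested. The 15 regions named for each cell type comparison kept their direction and their call in every alternative run, and 0 named regions reversed.

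Same-numbered libraries of different groups did not deviate together (correlations from -0.0934 to 0.134 over 18 pairs, against -0.209 to 0.195 for other pairs). The labels do not say what a replicate number marks, so whether the numbers pair the libraries is not known. With a replicate block the counts were 1 higher and 0 lower in MZB, 0 and 0 in FoB, 27 and 36 between wild-type and 30 and 25 between knockout cell types. Depth limits the low regions: at Oas3 and Ifitm3 a group's level rests on 1 to 91 reads.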
